A study of Mus musculus with 39 samples.

Results

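The developmental pluripotency associated (Dppa) genes Dppa2, Dppa4, Dppa3 and Dppa5a were followed through the reprogramming of mouse granulosa cells and the induction of germ cells. The 4 genes were chosen by symbol, and by Ensembl identifier in the fibroblast table that carries no symbols. Each is present in all 5 tables of transcript levels, which list between 17993 and 30849 genes. Dppa2 and Dppa4 encode proteins with a SAP domain that bind chromatin together, mark pluripotent and early germ cells, and act upstream of genes of the 2-cell embryo, among them Dux and the Zscan4 cluster. Dppa3, also called Stella or PGC7, is a maternal and germ line factor that protects the zygote's maternal genome from loss of DNA methylation and acts against Uhrf1, the partner that brings Dnmt1 to replicating DNA. Dppa5a, also called Esg1, encodes an RNA-binding protein with a KH domain and is a classical transcript of mouse embryonic stem cells.

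Transcripts were measured by RNA sequencing in 39 libraries of 14 groups, all labelled as strain C57BL6/CBA. There were 2 libraries of reprogramming cells at day 28 given 7 mM crotonic acid from day 16, 2 at day 28 without it, and 2 at day 16. The gPSC lines, pluripotent lines made from granulosa cells, were lines 2, 4, 10, 11, 15 and 16 with 1 library each, so that no line has a replicate in that table. They stood beside 2 libraries each of granulosa cells, embryonic fibroblasts (MEF) and a female ES line of the same strain. The germ cell set held 3 libraries for each of 7 groups: line gPSC4 and a female ES line (ESC), each as stem cells, after conversion to epiblast-like cells (EpiLC) and after induction of germ cell-like cells (PGCLC), plus germ cells (PGC) taken from E12.5 embryos. Each origin in that set is thus 1 cell line. Per the labels, EpiLC were made in 2 days with 1% KSR, bFGF and 2 ng/ml activin A. PGCLC followed in 4 days with BMP4 at 500 ng/ml, SCF at 100 ng/ml, EGF at 50 ng/ml and mLif at 1000 IU. The labels do not say which replicates came from separate cultures, animals or embryos, so that any p-value reflects spread among these libraries alone, which may be technical.

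Levels are FPKM, fragments scaled to gene length and library size, and differences are on the log2(FPKM + 1) scale, which understates the change of low genes. A gene was called when the limma test gave a Benjamini-Hochberg adjusted p under 0.05 and the absolute difference was at least 1 log2. The 39 libraries had 11268 to 12979 genes at 1 FPKM or more. Whole reads could be recovered for the germ cell set, with totals of 6106921 to 25222910 per library, while the depth of the other tables is unknown. Markers of the labelled cells were present. The summed level of 7 granulosa markers was 6933 to 7831 FPKM in granulosa cells and 16.8 to 20.5 FPKM in the lines, and that of 8 pluripotency markers was 2258 to 2695 FPKM in the lines. These are bulk samples, in which fewer cells of a type and less RNA per cell cannot be told apart.

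The genes lie at 3 places in the genome (GRCm38). Dppa4 (chr16:48283733-48294237) and Dppa2 (chr16:48303908-48319723) are adjacent on the plus strand, 9.7 kb apart, and their next coding gene downstream is Morc1. Dppa3 (chr6:122626410-122630272, plus strand) lies between Gdf3, 16.3 kb away, and Nanog, 77.2 kb away. Dppa5a (chr9:78367052-78368177, minus strand) is 7.9 kb from Ooep, another KH domain gene of the oocyte. No annotated gene overlaps any of the 4. Near-identical copies elsewhere could take or give reads, since Dppa2 has 6, Dppa4 has 2, Dppa3 has 3 and Dppa5a has 10 other genes with transcripts at least 90% identical over 100 bases or more. Most of these are pseudogenes, and Gm6083, a copy of Dppa5a, was listed at 0 to 0.21 FPKM in the tables of reprogramming cells and lines. The coding gene Pigp shares 417 bases of 1 annotated transcript with Dppa5a and had 9.9 to 30.3 FPKM in the table of lines. In the table of reprogramming cells Pigp had 19.5 to 31.5 FPKM, where Dppa5a had 0.24 to 46.1 FPKM. The part of shared reads in the Dppa5a values was not tested.

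All 4 genes were near 0 in somatic cells. In granulosa cells Dppa5a was at 0.41 and 0.5 FPKM, and in MEF at 0.15 and 0 FPKM. Dppa3 had 0.27 and 0.26 FPKM in granulosa cells and 0.35 and 0.157 FPKM in MEF. Dppa2 and Dppa4 were between 0 and 0.08 FPKM in these 4 libraries. None of the genes reached 1 FPKM in a somatic library.

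At day 28 Dppa5a had risen, Dppa2 and Dppa4 were at low levels, and Dppa3 was at or near 0. Dppa5a had 19.96 and 16.96 FPKM in day 28 cells without acid, against 0.24 and 0.97 FPKM in day 16 cells. Dppa5a was 13th in size among the genes higher at day 28 (difference 3.63, SE 0.22, limma adjusted p = 0.000661). Dppa4 had 0.45 and 0.59 FPKM in day 28 cells, against 0.04 in both day 16 libraries (difference 0.55, adjusted p = 0.0208). Dppa2 had 0.38 and 0.46 FPKM in day 28 cells, against 0.06 in both day 16 libraries (difference 0.42, adjusted p = 0.0438). Neither of these 2 differences reached 1 log2, and with a pseudocount of 0.1 in place of 1 both were called, at 2.14 for Dppa4 and 1.70 for Dppa2. Dppa3 was listed at 0 in all 4 libraries and was not tested. Thus 1 of the 4 members was called, where 5.34% of the 13266 genes tested were called, 4.51% higher and 0.829% lower. Dppa5a reached the filter of 1 FPKM in 2 libraries only through the day 28 groups, where it is high. The filter thus fixed its direction, and nothing is read from this count. The summed level of 8 pluripotency markers was 12.1 to 13.2 FPKM in day 28 cells and 0.61 FPKM in both day 16 libraries, and that of 7 granulosa markers was 508 to 537 FPKM in day 28 cells and 1176 to 1270 FPKM in day 16 cells, with Cyp19a1 at 0 in both groups. Fibroblast markers summed to 1288 to 1342 FPKM in day 28 cells and 988.2 to 1023 FPKM in day 16 cells, and extraembryonic endoderm markers to 341.5 to 342.8 FPKM in day 28 cells and 242.1 to 264.0 FPKM in day 16 cells. Their part in the result was not tested.

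Crotonic acid, a short-chain acid that cells turn into the donor for histone crotonylation, went with higher Dppa5a and Dppa4. Dppa5a had 46.1 and 45.34 FPKM in day 28 cells with acid, against 19.96 and 16.96 FPKM in day 28 cells without it (difference 1.27, SE 0.22, limma adjusted p = 0.0254). Dppa4 had 2.13 and 1.99 FPKM with acid, against 0.45 and 0.59 FPKM without (difference 1.01, SE 0.11, adjusted p = 0.0089). In both genes each library with acid was above each library without. With 2 libraries per group this can occur without a difference, so nothing is read from it. Dppa2 had 1.76 and 1.54 FPKM with acid, against 0.38 and 0.46 FPKM without (difference 0.90, SE 0.11, adjusted p = 0.0113), which is short of 1 log2. It was called with a pseudocount of 0.1, at 1.75. Dppa3 was at 0.07 FPKM in both libraries with acid and at 0 in both without. A value of 0.07 is also the 5th percentile of the values above 0 among genes of similar transcript length in those libraries, so it stands at the lower end of what the table resolves. The count was 2 of 4 members called, both higher, where 2.05% of genes were called, 0.852% higher and 1.2% lower. Dppa4 and Dppa2 reached the filter of 1 FPKM in 2 libraries only through the acid group where they are high, so their direction was fixed by the filter and nothing is read from this count.

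The calls with acid need all 4 day 28 libraries. Leaving out 1 of them leaves a group with a single library, whose spread is assumed to be that of the other groups. The 4 omissions gave adjusted p of 0.0715 to 0.101 for Dppa4 and 0.155 to 0.198 for Dppa5a, with differences of 0.94 to 1.08 and 1.16 to 1.38, and 7 to 25 genes were called, against 272 with all libraries. Without the filter on low values Dppa5a had a limma adjusted p of 0.0601, and with a pseudocount of 0.1 it was 0.209. These fits take their spread from the day 16 cells too, where Dppa5a had 0.24 and 0.97 FPKM. In a limma fit of the day 28 groups alone, with replicate number as a block, its adjusted p was 0.000429. The summed pluripotency markers were 43.5 to 47.3 FPKM with acid and 12.1 to 13.2 FPKM without. The summed level of 7 fibroblast markers was 883.7 to 909.4 FPKM with acid and 1288 to 1342 FPKM without, and that of 7 extraembryonic endoderm markers was 218.1 to 237.8 FPKM with acid and 341.5 to 342.8 FPKM without. The part of these shifts in the result was not tested.

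**Figure D1:**
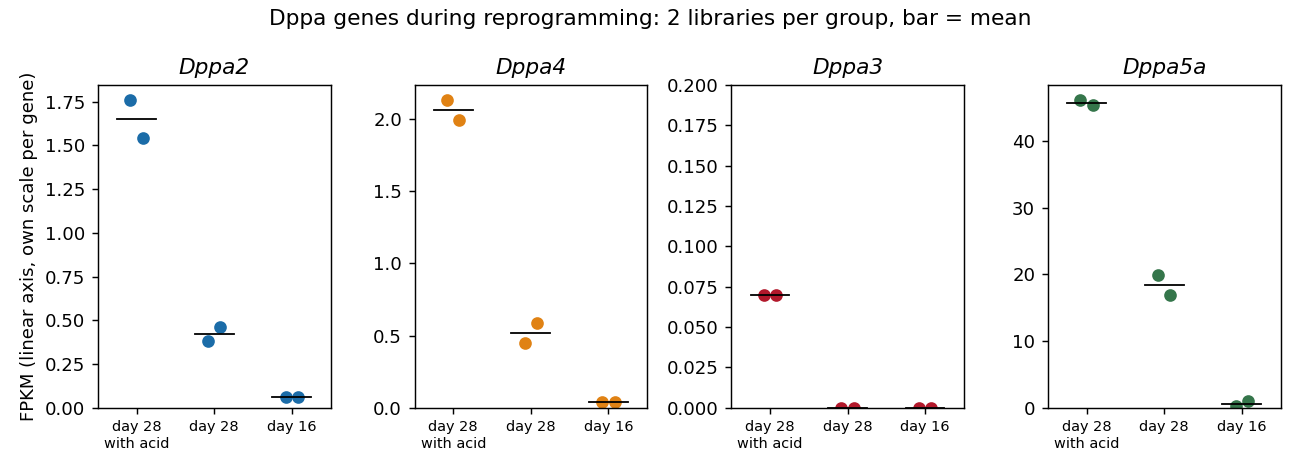
FPKM of the 4 Dppa genes (linear y axes, each gene with its own scale) in reprogramming cells at day 28 with crotonic acid, at day 28 without it and at day 16; points are the 2 libraries of a group and bars their mean. Dppa5a reached 45.34 to 46.1 FPKM with acid, while Dppa3 did not exceed 0.07 FPKM.

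Set against the established lines, each gene was still low at day 28. With acid, Dppa5a was at 3.17% of its mean over the 6 gPSC lines, Dppa2 at 2.66%, Dppa4 at 2.42% and Dppa3 at 0.354%. Without acid the shares were 1.28% for Dppa5a, 0.676% for Dppa2, 0.612% for Dppa4 and 0 for Dppa3. The tables were made separately, so these shares are a description without a test. With acid, Dppa3 was below the other 3 genes. Among other pluripotency genes the shares with and without acid were 1.79% and 0.0509% for Pou5f1, the gene of Oct4, 3.01% and 0.435% for Sox2, and 0.661% and 0.128% for Nanog. Sall4 was at 6.82% with acid and 9.89% without, and Esrrb at 3.37% and 2.16%, both above the Dppa genes in both groups. Zfp42 was at 4.36% with acid, above the Dppa genes, and at 0.762% without, below Dppa5a. The shares with and without acid were 1.66% and 0.139% for Utf1, and 0.522% and 0.478% for Tdgf1. When the mean of the 2 ES libraries served as the full level, the shares with acid were 6.28% for Dppa5a, 2.79% for Dppa4, 1.67% for Dppa2 and 0.301% for Dppa3, a wider spread among Dppa5a, Dppa4 and Dppa2 than against the lines. The order of Dppa2 and Dppa4 depends on the level chosen as full, while Dppa5a was highest and Dppa3 lowest against both.

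**Figure D2:**
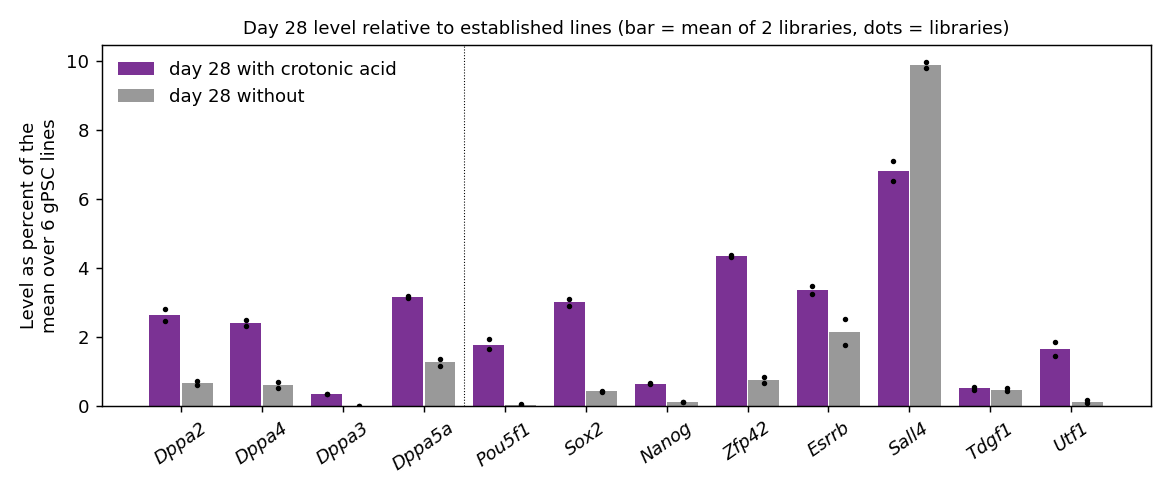
Level at day 28 as a percent of the mean over the 6 gPSC lines, for the 4 Dppa genes (left of the dotted line) and 8 pluripotency markers, with crotonic acid and without; bars are means of 2 libraries and dots the libraries. With acid, Dppa5a, Dppa2 and Dppa4 lay between 2.42% and 3.17%, and Dppa3 at 0.354%.

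In the lines all 4 genes were higher than in granulosa cells. Dppa5a had 1401, 1306, 1410, 1670, 1576 and 1304 FPKM in lines 2, 4, 10, 11, 15 and 16, against 0.41 FPKM in the granulosa cell library. It was the gene with the largest increase in the comparison (difference 9.995, SE 0.15, limma adjusted p = 3.15e-08), and ranked 44th to 53rd by level in the libraries of the lines. Dppa4 had 78.1, 84.7, 77.5, 96.0, 87.4 and 86.1 FPKM in the lines in that order, against 0.08 FPKM in granulosa cells (difference 6.31, SE 0.12, adjusted p = 3.92e-08). Dppa2 had 54.6, 61.6, 57.2, 69.8, 66.9 and 62.9 FPKM in the lines, against 0.05 FPKM in granulosa cells (difference 5.91, SE 0.14, adjusted p = 6.04e-08). For these 3 genes the lines were close to each other, with the highest line 1.24 to 1.28 times the lowest. All 3 were highest in line 11.

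Dppa3 differed widely among the lines. It had 9.27, 30.3, 4.51, 21.5, 30.3 and 22.7 FPKM in lines 2, 4, 10, 11, 15 and 16, against 0.27 FPKM in granulosa cells. Lines 10 and 2 were low and lines 4 and 15 were high, with the highest 6.72 times the lowest. The difference from granulosa cells was 3.79 with an SE of 0.89 (limma adjusted p = 0.00548), and it remained called when any line was left out (3.62 to 4.13, largest adjusted p 0.013). All 4 members were called higher, where 39.5% of genes were called, 21.8% higher and 17.7% lower. They passed the filter only through the lines, which fixed their direction, so nothing is read from this count. The p-values of this comparison rest on 1 granulosa cell library, which is assumed to vary as the lines do.

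The spread of Dppa3 over the lines was among the widest in the table. Its SD on the log2 scale was 1.01, against a median of 0.135 over the 8611 genes with a mean of at least 5 FPKM in the lines, and 6 of those genes had a larger SD. Dppa2, Dppa4 and Dppa5a had SDs of 0.131, 0.113 and 0.145. The coefficient of variation was 54.3% for Dppa3 and 8.01% to 10.3% for the other members. The genes beside Dppa3 on chromosome 6 varied less. Gdf3, a growth factor gene of the TGF-beta family, ranged from 44.4 FPKM in line 2 to 62.2 FPKM in line 15, and Nanog from 159 FPKM in line 10 to 243 FPKM in line 15. Slc2a3, a glucose transporter gene, ranged from 198 FPKM in line 2 to 278 FPKM in line 4. Lines 2 and 10 also had the highest summed fibroblast markers, 1905 and 1723 FPKM, against 907 to 1151 FPKM in the other 4 lines. Their summed pluripotency markers were 2258 and 2384 FPKM, against 2318 to 2695 FPKM in the other 4. Extraembryonic endoderm markers summed to 67.9 and 63.0 FPKM in lines 2 and 10, against 37.1 to 50.9 FPKM in the others, and germ cell markers to 45.8 and 44.4 FPKM, against 53.5 to 68.4 FPKM. Epiblast-like markers summed to 61.7 and 62.3 FPKM in lines 2 and 10, against 91.6 to 119.2 FPKM in the others. The part of these markers in the low Dppa3 of lines 2 and 10 was not tested.

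**Figure D3:**
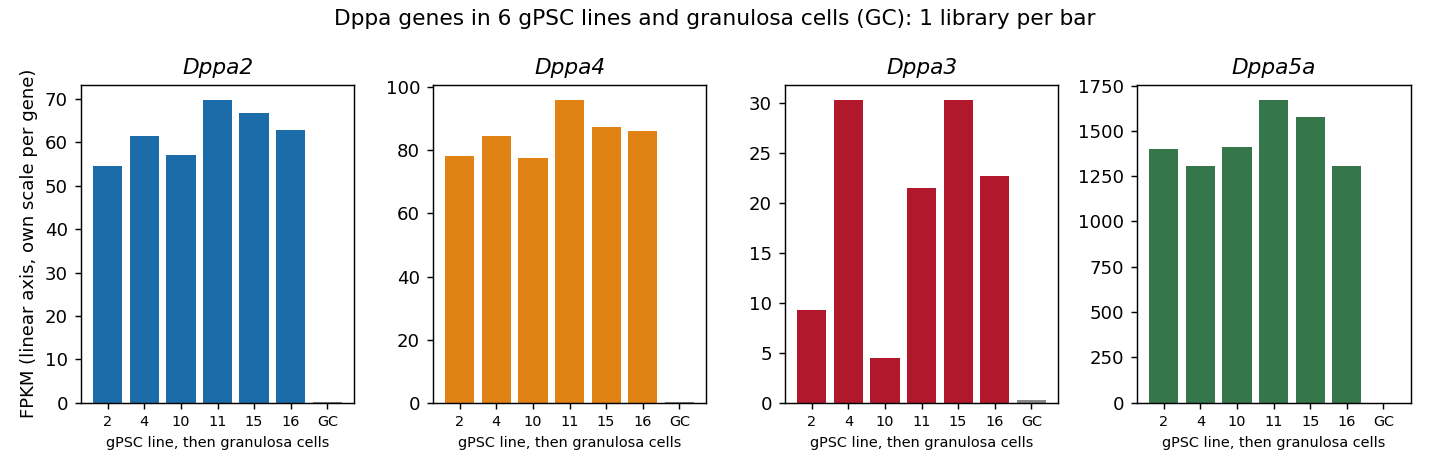
FPKM of the 4 Dppa genes (linear y axes from 0, each gene with its own scale) in gPSC lines 2, 4, 10, 11, 15 and 16 and, in grey, granulosa cells; each bar is 1 library. Dppa3 ran from 4.51 to 30.3 FPKM among the lines, whereas the highest line was at most 1.28 times the lowest for the other genes.

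The ES line sequenced in another table had levels of the same order as the lines, with its own balance between members. Dppa5a had 732 and 725 FPKM in the ES libraries, Dppa2 had 100.4 and 97.2 FPKM, Dppa4 had 70.7 and 77.1 FPKM, and Dppa3 had 23.6 and 22.9 FPKM. The Dppa3 values lie within the range of the lines. The ratio of Dppa2 to Dppa4 FPKM was 0.731 ± 0.021 in the 6 lines and 1.34 ± 0.11 in the 2 ES libraries (SD), values of separate tables that were not tested against each other.

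Genes of related functions were read in the comparison of lines with granulosa cells. Over all genes 21.8% were called higher there and 17.7% lower. Of 24 genes of the 2-cell-like state, among them Dux and the Zscan4 genes, 14 passed the filter, of which 10 were called higher and 0 lower. These 10 had 0 to 0.33 FPKM in granulosa cells and passed only through the lines, so their direction was fixed by the filter. Zscan4f, of the telomere-associated Zscan4 cluster, rose to 20.4 ± 6.34 FPKM in the lines (SD, n = 6), against 0.33 FPKM in granulosa cells. At day 28, Zscan4f had 1.07 and 1.23 FPKM with acid and 0 in both libraries without, and it too passed the filter only through the group where it is high. The Zscan4 genes are near-identical copies, so the share of each is uncertain. Of 12 genes of DNA methylation, 8 were called higher in the lines, of which Tet1 passed the filter only through them, and 1 lower. Among them was Dnmt3l, the cofactor of the de novo methyltransferases, at 359 ± 48.0 FPKM in the lines against 1.72 FPKM in granulosa cells. Of 10 KH domain and maternal complex genes, 4 were tested. Ooep rose, Khdc3 rose after passing the filter only through the lines, and Tle6 fell. Ooep, the neighbour of Dppa5a, had 61.8 ± 9.25 FPKM in the lines against 1.14 FPKM in granulosa cells.

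During germ cell induction the members followed 4 different courses. Dppa5a fell in EpiLC and was intermediate in PGCLC, Dppa3 stayed low until PGCLC and rose there, Dppa2 had its highest level in EpiLC, and Dppa4 was higher at each stage. Values of this set lie on a scale of their own, and the cause was not tested. For line gPSC4, Pou5f1 had 1159 FPKM in the table of lines and 236.8 to 239.2 FPKM in this set. Dppa5a of that line had 1306 FPKM in the table of lines and 8934 to 10837 FPKM in this set. The FPKM of this set divide by about the coding length. The lengths implied by the recovered reads were 899, 884, 449 and 354 bases for Dppa2, Dppa4, Dppa3 and Dppa5a, beside longest coding sequences of 903, 888, 450 and 354 bases. The libraries labelled PGCLC also carried gonadal and blood markers, with values given after the steps. The labels name a 4-day induction and no later step, and whether that is the whole history of these libraries was not tested, so each PGCLC difference is that of the libraries as labelled.

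Dppa3 was the member with the largest change. In the gPSC4 course it had 16.2, 17.1 and 13.3 FPKM in stem cells, 10.3, 10.6 and 10.1 FPKM in EpiLC, and 1857, 1724 and 1700 FPKM in PGCLC. In the ESC course it had 20.3, 21.02 and 16.5 FPKM in stem cells, 21.7, 20.1 and 12.9 FPKM in EpiLC, and 1838, 2039 and 1840 FPKM in PGCLC. The stem cell and EpiLC libraries overlapped in the ESC course and did not in the gPSC4 course, and PGCLC stood far above both. PGCLC exceeded EpiLC by 7.28 for gPSC4 and by 6.66 for ESC (SE 0.14, limma adjusted p = 1.19e-18 and 3.05e-18), the 6th and 7th largest increases of the 2 comparisons. These values rest on 6461 to 11493 reads per ESC PGCLC library and 9716 to 13997 per gPSC4 PGCLC library, and on 45 to 96 reads per EpiLC library. EpiLC minus stem cells gave -0.54 for gPSC4 (limma adjusted p = 0.00305) and -0.10 for ESC (adjusted p = 0.575), neither reaching 1 log2. With voom on the recovered reads the gPSC4 value was -0.59 with an adjusted p of 0.263, so a fall in that course depends on the method.

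Dppa5a ranked 2nd by FPKM in every stem cell library of this set, and 51st in line gPSC4 in the table of lines. It had 8934, 9386 and 10837 FPKM in gPSC4 stem cells and 8140, 8057 and 8019 FPKM in ESC. It fell to 2533, 2405 and 2408 FPKM in gPSC4 EpiLC and to 2190, 2003 and 1961 FPKM in ESC EpiLC. The fall was 1.98 log2 in both courses (SE 0.07, limma adjusted p = 2.93e-14 and 3.01e-14), with no overlap between stages. In PGCLC the levels were 4267, 4373 and 4136 FPKM for gPSC4 and 3966, 4911 and 4345 FPKM for ESC, all above EpiLC and below stem cells. PGCLC minus EpiLC was 0.80 for gPSC4 (adjusted p = 1.29e-08) and 1.099 for ESC (adjusted p = 1.1e-10), so 1 log2 was passed in the ESC course. The difference between the courses was -0.30 (SE 0.10, adjusted p = 0.26), and with median-ratio scaling the ESC value was 0.99, short of a call. Even in EpiLC the gene ranked 26th to 37th by level.

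Dppa2 and Dppa4, neighbours on chromosome 16 whose proteins work together, parted at the PGCLC stage. Dppa2 had 93.9, 98.5 and 89.8 FPKM in gPSC4 stem cells, 195, 162 and 171 FPKM in EpiLC and 133, 112 and 114 FPKM in PGCLC. In the ESC course Dppa2 had 106, 102 and 95.6 FPKM in stem cells, 212, 193 and 188 FPKM in EpiLC and 110, 116 and 111 FPKM in PGCLC. The EpiLC libraries were above all stem cell and PGCLC libraries of the same course. Dppa4 had 186, 193 and 184 FPKM in gPSC4 stem cells, 313, 294 and 303 FPKM in EpiLC and 392, 350 and 340 FPKM in PGCLC. In the ESC course Dppa4 had 189, 189 and 191 FPKM in stem cells, 286, 260 and 279 FPKM in EpiLC and 406, 379 and 369 FPKM in PGCLC. Each stage of Dppa4 was above the stage before it with no overlap.

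The steps of Dppa2 and Dppa4 were small beside those of Dppa3 and Dppa5a, and none between consecutive stages reached 1 log2. EpiLC minus stem cells was 0.89 and 0.96 for Dppa2 in the gPSC4 and ESC courses, and 0.69 and 0.53 for Dppa4, with limma adjusted p of 3.59e-06 or less. PGCLC minus EpiLC was -0.55 and -0.81 for Dppa2, and 0.25 and 0.48 for Dppa4, with limma adjusted p of 0.00508 or less. Over the alternative settings this gPSC4 step of Dppa4 ran from 0.15 to 0.29, with adjusted p from 0.00359 to 0.0838. The median of that step over all genes was 0.08. From stem cells to PGCLC, Dppa4 differed by 0.93 in the gPSC4 course and by 1.02 in the ESC course, where it was called (adjusted p = 2.51e-10). That call is lost with median-ratio scaling (0.92) and without the 1st ESC PGCLC library (0.98). The ratio of Dppa2 to Dppa4 was 0.332 ± 0.0096 in gPSC4 PGCLC and 0.292 ± 0.019 in ESC PGCLC, beside 0.500 ± 0.012 in gPSC4 stem cells and 0.535 ± 0.032 in ESC (SD, n = 3 each). Across these 21 libraries Pearson's r of log2 levels was 0.261 between Dppa2 and Dppa4, 0.771 between Dppa3 and Dppa4, and -0.871 between Dppa2 and Dppa5a. These are descriptions over libraries that share 7 groups.

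In EpiLC against stem cells 1 of 4 members, Dppa5a, was called, and it was lower. Of the 14059 genes tested, 20.4% were called for gPSC4 (10.1% higher, 10.3% lower) and 21% for ESC (9.64% higher, 11.3% lower). In PGCLC against EpiLC 1 of 4 members was called for gPSC4, Dppa3 higher, where 29.7% of genes were called (15.8% higher, 13.9% lower). For ESC 2 of 4 were called, Dppa3 and Dppa5a higher, where 29.3% of genes were called (16.7% higher, 12.7% lower). In PGCLC against stem cells 2 of 4 were called for gPSC4, Dppa3 higher and Dppa5a lower, where 28.8% of genes were called (15.2% higher, 13.6% lower). For ESC 2 of 4 were called, Dppa3 and Dppa4 higher, where 30.6% of genes were called (16% higher, 14.6% lower). The comparisons of a course share their libraries.

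**Figure D4:**
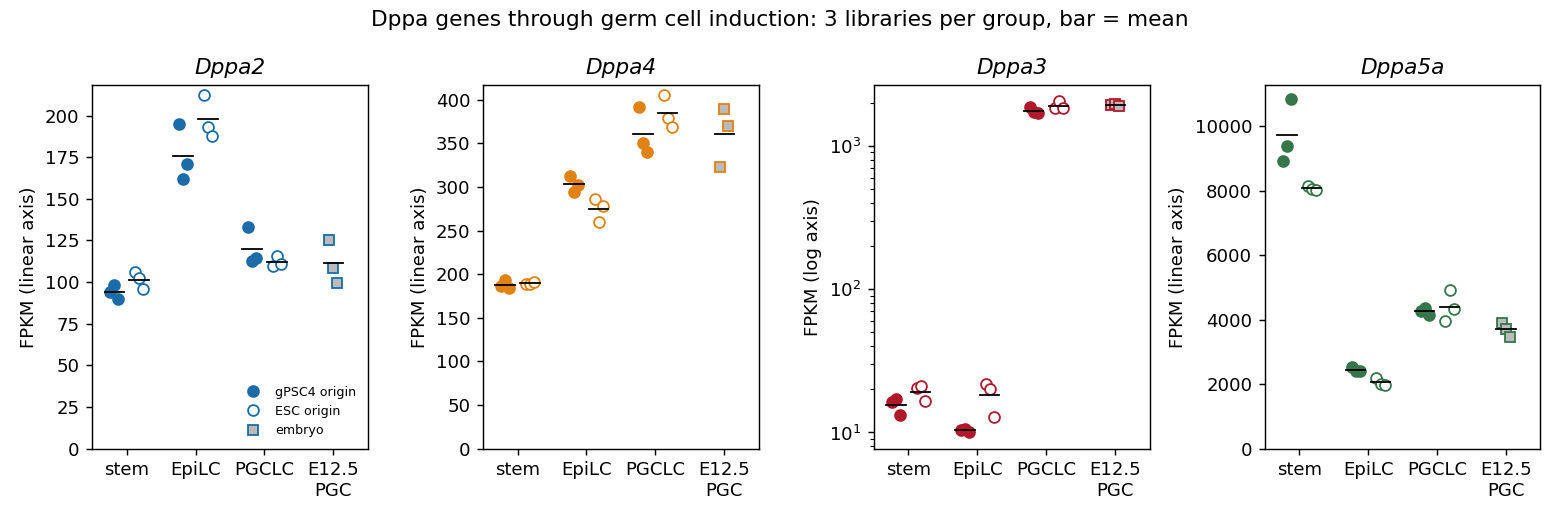
FPKM of the 4 Dppa genes in stem cells, EpiLC and PGCLC of gPSC4 (filled) and ESC origin (open) and in E12.5 PGC (squares); points are the 3 libraries of a group and bars their mean, with a log y axis for Dppa3 and linear axes from 0 for the others. Dppa3 was at 10.1 to 21.7 FPKM in stem cells and EpiLC and at 1700 to 2039 FPKM in PGCLC.

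The 4 genes differed between PGCLC and E12.5 PGC by at most 0.25 log2, with SEs of 0.07 to 0.14. Dppa3 had 1926, 1970 and 1898 FPKM in the PGC, and the difference of PGCLC from PGC was -0.13 for gPSC4 and -0.02 for ESC. Dppa5a had 3908, 3720 and 3473 FPKM in PGC, and the difference was 0.20 for gPSC4 (limma adjusted p = 0.199) and 0.25 for ESC (adjusted p = 0.107). Dppa4 had 323, 390 and 370 FPKM and Dppa2 had 126, 108 and 99.7 FPKM in PGC, with differences from 0.001 to 0.11. The members were called 0 of 4 times in either comparison, where 0.576% of genes were called for gPSC4 (0.391% higher, 0.185% lower) and 0.427% for ESC (0.341% higher, 0.0854% lower). At an unadjusted p under 0.05 in limma the Dppa5a difference alone passed, in both comparisons, and with voom on the recovered reads 0 members were called. Relative to ESC, PGC had Dppa3 higher by 6.58 and Dppa5a lower by 1.13 (both called, adjusted p = 2.9e-18 and 7.2e-11), with Dppa4 at 0.92 and Dppa2 at 0.13, where 31.1% of genes were called (16.4% higher, 14.7% lower).

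Markers of other cells moved with the rise of Dppa3. The summed level of 5 erythroid markers was 388.7 to 592.3 FPKM in gPSC4 PGCLC, 604.2 to 930.0 FPKM in ESC PGCLC and 570.2 to 613.0 FPKM in PGC, against at most 3.66 FPKM in stem cells and EpiLC. The sum of 6 gonadal somatic markers was 125.7 to 171.4 FPKM in PGCLC and PGC, against 3.11 to 49.6 FPKM in stem cells and EpiLC. Of these, Nr5a1, a transcription factor gene of the gonadal soma, had 14.7 ± 0.67 FPKM in gPSC4 PGCLC, 20.1 ± 3.36 FPKM in ESC PGCLC and 19.7 ± 6.64 FPKM in PGC (SD, n = 3 each). The germ cell genes Dazl and Ddx4, which mark PGC that have reached the gonad, were at 794 ± 24.7 and 242 ± 31.8 FPKM in gPSC4 PGCLC, at 829 ± 100.0 and 230 ± 6.19 FPKM in ESC PGCLC, and at 862 ± 52.2 and 250 ± 15.4 FPKM in PGC. In stem cells and EpiLC the highest library had 16.8 FPKM of Dazl and 18.7 FPKM of Ddx4. The libraries labelled PGCLC thus carried germ cell, gonadal and blood markers at levels like those of the embryonic PGC libraries. The part of these cells in the Dppa levels was not tested.

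**Figure D5:**
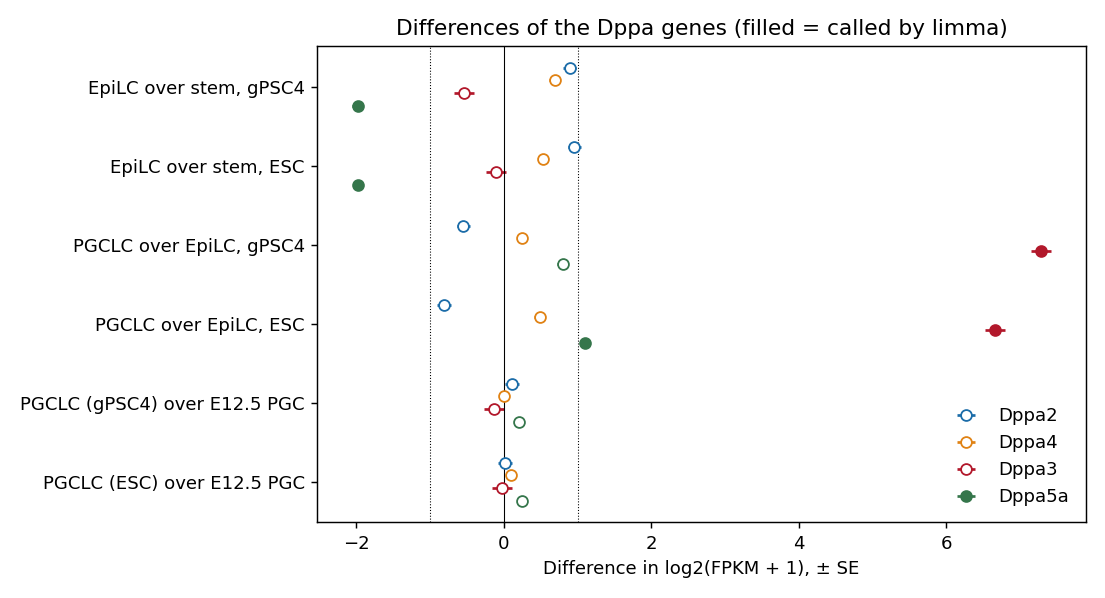
Differences in log2(FPKM + 1) of the 4 Dppa genes, with limma's SE as bars, for steps of germ cell induction and for PGCLC against E12.5 PGC; filled points were called (adjusted p under 0.05 and at least 1 log2, dotted lines) and open points were not. Dppa3 in PGCLC against EpiLC lies at 6.66 and 7.28, and all 4 genes lie within 0.25 of 0 in PGCLC against PGC.

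By origin, the members of gPSC4 cells differed from those of ESC by at most 0.30 log2 in stem cells, 0.73 in EpiLC and 0.11 in PGCLC. Of the members 0 were called by limma or by voom on the recovered reads, where 0.00711% of genes were called in stem cells (0 higher), 0.0711% in EpiLC (0.0427% higher, 0.0285% lower) and 0.313% in PGCLC (0.0925% higher, 0.22% lower). At an unadjusted p under 0.05, Dppa3 and Dppa5a passed in stem cells and in EpiLC and 0 members in PGCLC. Voom gave Dppa5a in stem cells 0.26 with an adjusted p of 0.00832. Of the 12 differences, only that of Dppa3 in EpiLC had an adjusted p under 0.05 in limma, with 10.3 ± 0.29 FPKM in gPSC4 EpiLC and 18.2 ± 4.67 FPKM in ESC EpiLC (SD, n = 3 each, difference -0.73, limma adjusted p = 0.028). The 3 gPSC4 EpiLC libraries lay below the 3 ESC EpiLC libraries, on 45 to 61 and 55 to 96 reads. The adjusted p of this difference ran from 0.00055 to 0.882 over the alternative settings. The step into EpiLC differed between origins by -0.43 for Dppa3 (adjusted p = 1) and the step into PGCLC by 0.61 (adjusted p = 0.219), and 0 members were called in either, where 0.0142% of genes were called at the EpiLC step, all higher, and 0.0854% at the PGCLC step (0.0498% higher, 0.0356% lower).

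Other genes of the same pathways were read in PGCLC against EpiLC. Of 12 DNA methylation genes, 1 was called higher and 6 lower in each course, with a median of -0.89 for gPSC4 and -1.33 for ESC beside 0.08 and 0.10 over all genes. Uhrf1, which the Dppa3 protein displaces from chromatin, fell to 35.8 ± 7.55 FPKM in gPSC4 PGCLC, against 175 ± 11.8 FPKM in EpiLC, and to 32.3 ± 5.78 FPKM in ESC PGCLC, against 165 ± 5.24 FPKM in EpiLC (differences -2.28 and -2.33, limma adjusted p = 6.42e-11 and 4.04e-11). Dnmt3b, a de novo methyltransferase gene, fell in both courses (differences -6.85 and -7.43), and Uhrf2, a relative of Uhrf1, rose by 1.30 and 1.48. Few genes of the 2-cell-like state passed the filter in this set. Of 24, 3 were tested, and 0 were called for gPSC4 and 1, Zscan4d, lower for ESC. Dppa2 and Dppa4 were at 89.8 FPKM or more in every library. Zscan4f, at 12.9 to 31.3 FPKM in the table of lines, was not among the 3. The Zscan4 genes are near-identical copies, and how this set counts the reads they share is unknown. Absence of these genes is therefore not read from it. Of the 7 KH domain and maternal complex genes tested, 3 were called higher in each course (Khdc1a, Tle6 and Khdc3) and 1 lower (Zbed3). Khdc1a had a difference of 0 between EpiLC and stem cells of gPSC4. It may have passed the filter only through groups where it is high, so its direction is not read. Over all genes 15.8% were called higher and 13.9% lower for gPSC4, and 16.7% and 12.7% for ESC.

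Of 12 chromosomal neighbours tested in EpiLC against stem cells, 1 was called higher and 4 lower in each course. Over all genes 10.1% were called higher and 10.3% lower for gPSC4, and 9.64% and 11.3% for ESC. Nanog, beside Dppa3, fell in EpiLC (differences -5.33 for gPSC4 and -5.43 for ESC) and rose in PGCLC by 3.54 and 3.51. Morc1, beside Dppa2, fell to 4.22 ± 1.40 FPKM in gPSC4 EpiLC, against 33.2 ± 2.28 FPKM in stem cells (SD, n = 3 each), while Dppa2 had its highest level there. Ooep, beside Dppa5a, had 92 ± 15.6, 22.2 ± 5.20 and 36.9 ± 5.11 FPKM in gPSC4 stem cells, EpiLC and PGCLC. Its order of stages was that of Dppa5a. Gdf3, on the other side of Dppa3, was called lower in PGCLC against EpiLC in both courses. Nectin3, an adhesion gene 1785.2 kb away on the other side of Dppa4, was like Dppa4 higher in PGCLC than in stem cells, by 1.45 in both courses (limma adjusted p = 0.000473 and 0.000436). It was the 1 neighbour called higher there, while 5 of the 12 were called lower in each course (Slc2a3, Gdf3, Apobec1, Nanog and Ooep). The shares over all genes there were 15.2% higher and 13.6% lower for gPSC4, and 16% and 14.6% for ESC.

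The genes whose log2 levels over the 21 libraries were most like each member were found among 10765 genes. For Dppa2 they included Fgf5 (Pearson r 0.966), an epiblast growth factor gene, Cldn6, Nav2 and Naa10, all with their highest group mean in ESC EpiLC. For Dppa4 they were Psmg2 (0.983), Car12, Stard10, Aasdh and Dmrt1. For Dppa3 they were the embryonic globin genes Hba-x (0.997), Hbb-y and Hbb-bh1, the adult globin gene Hbb-bs and the platelet factor gene Pf4. For Dppa5a they included Mylpf (0.985), Sec14l1, Lrpap1 and Gnpda1. Likeness rests mostly on 7 groups, and the 5 genes found for each member change with the measure. Over group means 0 to 2 of the 5 were again among the top 5, and by Spearman's rho 0 or 1 were.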

How the data were processed

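The authors deposited FPKM values in 5 tables, per the file headers or workbook name, each table made separately. RNA came from a Qiagen kit and NEBNext Ultra libraries, per the labels' protocols. The column headers write CS where the titles write CA for crotonic acid. The submitters' processing notes name mm10, Bowtie2, HISAT2, RSEM, R 3.4.2 and DESeq2, without roles. The 3 ESC and both MEF columns could be matched by group alone. Within a table, log2(FPKM + 1) was fitted with limma 3.58.1 in R 4.3.3 (all libraries, group as the single term, empirical Bayes with trend, two-sided, Benjamini-Hochberg). A filter of 1 FPKM in 2 libraries or more (reprogramming), 1 (lines) or 3 (germ cell set) left 13266, 13797 and 14059 genes. There were 17 comparisons, 2 of them between steps by origin. Genes outside the family were named as the 5 most like each member, or from fixed lists (up to 3 called genes in each direction). Some of these genes are not reported here. Genes needed to state a count, or to describe neighbours and markers, were added. The members and lists were chosen with earlier results of these data known. In the germ cell set, values of all 15977 genes above 0 in at least 5 libraries resolved into whole reads (tolerance 0.001 reads), and limma's voom on them was an alternative, as were another pseudocount, no filter, median-ratio scaling, no trend, the compared groups alone, a replicate block and each library left out. The limma test was tested on simulated data, where for the acid comparison 97 and 98 of 100 genes changed by 1.5 and 3 log2 were called, with 4 false calls. For ESC EpiLC against ESC 84 and 100 were called, with 1 false call, and for the EpiLC step by origin 65 and 97, with 4. In the germ cell set 9 of 45 correlations of same-numbered libraries exceeded 0.1, short of the pairing rule (all over 0.1). In the reprogramming cells all 6 exceeded 0.1, which meets the rule. The reported tests carry no block there either, and the block is given as an alternative. A planned search of promoter sequence was not run. Gene positions and transcript lengths come from GENCODE M21.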

Additional observations from a re-analysis of the deposited data

How the results depend on the processing

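Over 66 results of the members and 856 alternatives, 824 kept their direction and their side of the threshold. With a pseudocount of 0.1, Dppa2 and Dppa4 became called at day 28 against day 16 (1.70 and 2.14), Dppa2 became called with acid (1.75), and Dppa5a was no longer called with acid (1.31). Without the filter Dppa5a with acid kept 1.27 but lost its call. With single libraries left out, the acid differences ran from 0.94 to 1.08 for Dppa4 and from 1.16 to 1.38 for Dppa5a and all lost their call, each in a design with 1 library in a group. Median-ratio scaling gave 0.99 for Dppa5a in ESC PGCLC against EpiLC and 0.92 for Dppa4 in ESC PGCLC against ESC. With single libraries left out that Dppa4 value ran from 0.98 to 1.05.

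The reversals were all of uncalled differences near 0. They were Dppa5a in the EpiLC step by origin (0.0083 with voom, -0.0645 to 0.0748 with libraries left out), Dppa4 in gPSC4 PGCLC against PGC (-5e-04 with median-ratio scaling, -0.0758 to 0.0584 with libraries left out) and Dppa2 in ESC PGCLC against PGC (-0.0087 with voom, -0.058 to 0.11 with libraries left out). With libraries left out, Dppa3 in ESC EpiLC against ESC ran from -0.24 to 0.11, Dppa4 in gPSC4 stem cells against ESC from -0.0313 to 9e-04, Dppa5a in gPSC4 against ESC PGCLC from -0.12 to 0.0365, and Dppa3 in ESC PGCLC against PGC from -0.0702 to 0.0043.

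The share at day 28 against the ES level instead of the lines was 0.425% for Dppa2 and 2.53% for Dppa5a without acid, and with acid 1.67% for Dppa2, 2.79% for Dppa4, 0.301% for Dppa3 and 6.28% for Dppa5a. The cause of these shifts was not tested. Counts of called genes moved by over 1.5 times for day 28 against day 16 (518 to 1147, reported 708), acid (7 to 362, reported 272), and gPSC4 against ESC in PGCLC (0 to 157, reported 44), EpiLC (0 to 11, reported 10) and stem cells (0 to 3, reported 1). They did so too for the steps by origin (1 to 4 and 2 to 43, reported 2 and 12) and for PGCLC against PGC (0 to 148 and 0 to 140, reported 81 and 60). In the 11 comparisons that allow it, all without the unnumbered ESC or the lines, the replicate number as a block changed no member's call, for example 1.27 for Dppa5a with acid (adjusted p = 0.000429) and 7.28 for Dppa3 in gPSC4 PGCLC against EpiLC (adjusted p = 1.58e-05). Same-numbered correlations were 0.136 to 0.338 in the 6 reprogramming pairs and -0.028 to 0.172 in the germ cell set. With 2 libraries per group, numbers 1 and 2 of the reprogramming cells give the same value, so these 6 are not separate. Among the cultured groups of the germ cell set the correlations were 0.07 to 0.172 for number 1 (8 of 10 over 0.1). They were 0.006 to 0.098 for number 2 and 0.058 to 0.103 for number 3, a hint from the data that number 1 libraries deviate together. Depth limits Dppa3 in EpiLC, which rests on 45 to 96 reads per library, and Dppa2, Dppa3 and Dppa4 at day 16 and 28, where the reads are unknown.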
